A study of Mus musculus with 5 samples.

Results

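The Toll-like receptor genes *Tlr2*, *Tlr4*, *Tlr7*, *Tlr8* and *Tlr13*, the co-receptor genes *Cd14* and *Ly96*, the adaptor gene *Myd88* and the kinase genes *Irak1* and *Irak4* were examined in sorted aortic macrophages. They were taken by their symbols, as 10 of the 55487 genes in the table of counts, and each was counted more than 3 times in at least 1 library. RNAseq was available for 5 libraries, 2 labelled WT and 3 labelled KO. The mice were males that lacked *Apoe*, which makes them prone to atherosclerosis, and received a Western diet for 10 weeks after 8 weeks on chow. In WT, or Zeb1WT/ApoeKO, both alleles of *Zeb1* were floxed and no Cre was present, and in KO, or Zeb1∆M/ApoeKO, Cre expressed from *Lyz2* was added to delete *Zeb1* in myeloid cells. The cells were viable CD45+ F4/80+ cells, also gated on CD11b+ according to the methods, and the cells of 3 mice per genotype and condition were pooled. The study describes its replicates as biologically independent mice or macrophages, but how the mixed cells were divided over the libraries is not given, and p-values measure only the spread between these libraries.

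Toll-like receptors recognise microbial molecules, and some also respond to modified lipoproteins and to nucleic acids of dying cells, both of which are present in atherosclerotic plaques. TLR2 and TLR4 act at the cell surface, TLR4 together with MD-2, the product of *Ly96*, and with CD14, which hands over lipopolysaccharide. TLR7, TLR8 and TLR13 act in endosomes on RNA. All of these receptors signal through MyD88, which recruits IRAK4 and then IRAK1 on the way to NF-κB, and TLR4 can also signal through the adaptor TRIF, the product of *Ticam1*.

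Total counts were between 20118545 and 50649912 per library. A count of 3, the floor used here, was between 0.0597 and 0.248 CPM (the usual library-size-adjusted count unit, here with TMM-scaled library totals) and covers counting error only, since amplified reads are not independent molecules. Of 11 macrophage markers, 7 and 10 exceeded 3 counts in the WT-labelled libraries and 9, 10 and 9 in the KO-labelled libraries. The genes of the sorted proteins CD45 (*Ptprc*) and F4/80 (*Adgre1*) were counted at least 475 times in every library, whereas *Itgam*, which encodes CD11b, had 0 counts in KO-labelled replicate 1. Both libraries numbered 1 stood apart. They held 1714 and 870 genes with at least 100 counts, against 3173 to 4421 in the other three. *Cd68*, which encodes a macrophage lysosomal protein, had 0 and 10 counts in them and at least 36172 in the others. Not all macrophage markers were low there, as *C1qb* had 38760 and 398502 counts. The 11 macrophage markers summed to 24147 and 46373 CPM in these libraries, against 28362 to 32982 in the others. *Zeb1* itself had 22 counts in KO-labelled replicate 1 and 0 in the other 4 libraries. It did not check the labels, so the libraries are named here by label.

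The 10 genes were counted in an on-or-off manner. Of the 50 values of 10 genes in 5 libraries, 22 were 0 and 25 did not exceed 3 counts. At least 1000 counts in some library were found for 8 genes, of which 6 (75%) fell to 3 counts or less in a different library with the same label, the exceptions being *Cd14* and *Irak1*. Over all genes, this held for 4067 of 5694 (71.4%). For the median gene of the 10, a single library held 96.3% of the CPM summed over the 5 libraries, against 95.8% for the 21705 genes that exceeded 3 counts somewhere. For the 7 of the 10 genes with enough counts for a test, the median share held by a single library was 95.8%, against 75.1% for all 7905 such genes.

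**Figure D1:**
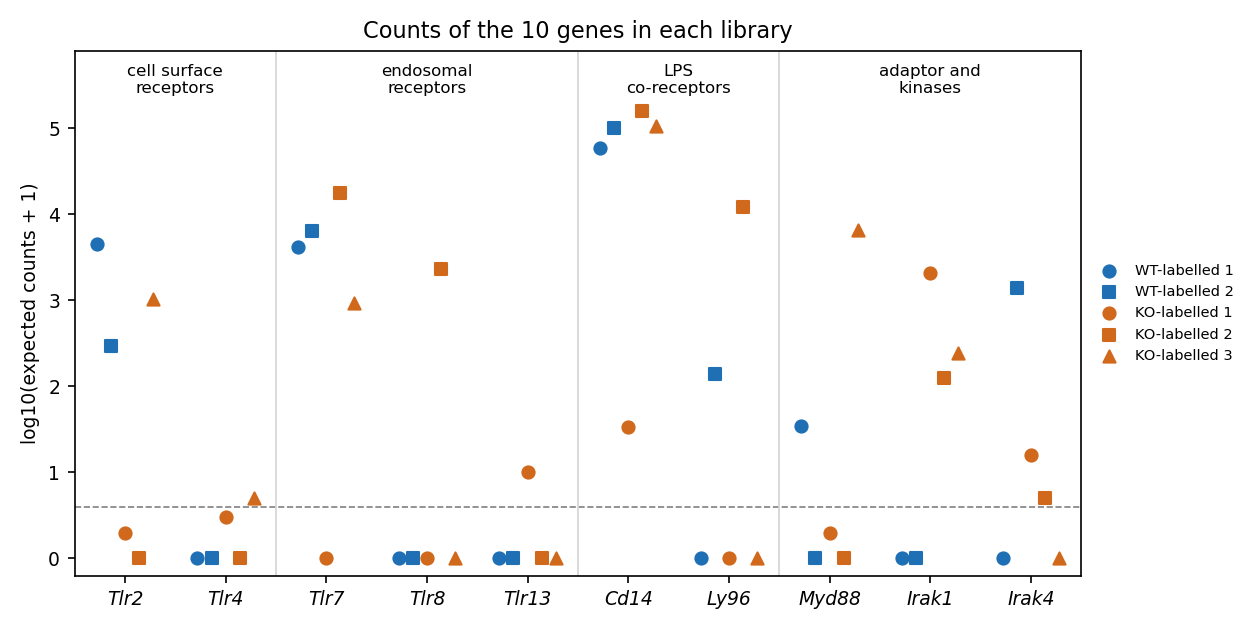
Expected counts of the 10 genes in each library, as log10 of the count plus 1, with blue for WT-labelled and orange for KO-labelled libraries and symbols for the replicate number. The dashed line marks 3 counts, and LPS stands for lipopolysaccharide. *Cd14* is the only gene above the line in all 5 libraries.

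*Cd14* was the most abundant of the 10 genes, in CPM per kilobase, in every library but KO-labelled replicate 1. It lies on chromosome 18 of GRCm38 (GENCODE M21) from 36725067 to 36726798. Its counts were 59319 and 101356 in the WT-labelled libraries and 33, 156741 and 105990 in the KO-labelled libraries. In CPM these were 2148 and 2941 against 2.72, 3665 and 2110, so that 4 libraries lay between 2110 and 3665 CPM, with both labels overlapping, and KO-labelled replicate 1 was far below them. Per kilobase of exon, *Cd14* stood at the 99.3rd to 99.6th percentile of the counted genes (those with more than 3 counts) in those 4 libraries and at the 92.8th in KO-labelled replicate 1. Its mean was 2544 ± 561 CPM (SD, n = 2) in the WT-labelled and 1926 ± 1838 CPM (SD, n = 3) in the KO-labelled libraries. By the quasi-likelihood test of edgeR, the difference between KO-labelled and WT-labelled libraries was −0.40 on the log2 scale (SE 2.29) at an adjusted p of 1. It was −0.93 with RLE size factors, −4.76 with upper-quartile normalization and −0.45 with total counts alone. Leaving out KO-labelled replicate 1 brought it to −0.00099.

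*Ly96*, which encodes the MD-2 subunit that binds lipopolysaccharide on TLR4, lies on chromosome 1 from 16688051 to 16709611. Its counts were 0 and 139 in the WT-labelled libraries and 0, 12301 and 0 in the KO-labelled libraries. KO-labelled replicate 2 held 98.6% of its summed CPM, at 288 CPM, and the labels overlapped. The WT-labelled mean was 2.02 ± 2.85 CPM (SD, n = 2) and the KO-labelled mean 95.9 ± 166 CPM (SD, n = 3), and edgeR put the log2 difference at 5.57 (SE 6.40) with an adjusted p of 1. Without WT-labelled replicate 2 the value was 14.70, and with limma-voom 1.34. *Ly96* could not be tested without KO-labelled replicate 2, since it then failed the filter on low counts.

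*Tlr4* was close to undetected. The gene spans chromosome 4 from 66827584 to 66930284 and had 0 counts in both WT-labelled libraries and 2, 0 and 4 counts in the KO-labelled libraries. Its highest value was 0.165 CPM, in KO-labelled replicate 1, where that is below the floor of 0.248 CPM. *Cd14*, whose product serves TLR4, thus had at least 59319 counts in 4 libraries with at most 4 counts of *Tlr4*. More than 3 counts of *Tlr4* and *Ly96* together were found in 0 libraries, and of *Ly96* and *Cd14* together in 2.

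*Tlr2*, whose product recognises bacterial lipoproteins, lies on chromosome 3 from 83836272 to 83841767. Its counts were 4537 and 296 in the WT-labelled libraries and 1, 0 and 1038 in the KO-labelled libraries. WT-labelled replicate 1, at 164 CPM, held 84.8% of its summed CPM, and KO-labelled replicate 3 (20.7 CPM) lay above WT-labelled replicate 2 (8.59 CPM), so that the labels overlapped. The WT-labelled mean was 86.4 ± 110 CPM (SD, n = 2) and the KO-labelled mean 6.91 ± 11.9 CPM (SD, n = 3). The edgeR log2 difference was −3.64 (SE 5.08) with an adjusted p of 1. It was −0.18 without WT-labelled replicate 1 and −10.83 without KO-labelled replicate 3, and 0.42 without both libraries numbered 1, a fit chosen after seeing the data.

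Neutrophils also express *Tlr2* and *Cd14*, and neutrophil markers were counted in these libraries. The 7 neutrophil markers summed to 2617 and 883 CPM in the WT-labelled libraries and to 2737, 1259 and 139 CPM in the KO-labelled libraries. Between 3 and 5 of the 7 exceeded 3 counts in a library, while *Ly6g*, which defines neutrophils in the mouse, had at most 1 count. In KO-labelled replicate 1 the sum was nearly all *S100a8* (2734 CPM), with *S100a9* and *Retnlg* at 0. In WT-labelled replicate 1, where *Tlr2* was highest, these 3 genes had 33862, 29483 and 8892 counts. Other markers of the list were low there, with *Cxcr2* at 3 counts and *Mmp9* at 0. *Csf3r* had 33 counts there and 15 in KO-labelled replicate 1, against 4976 to 17767 in the others. Neutrophils carry CD11b, and the cells were also sorted on F4/80+. The part of neutrophils in the *Tlr2* and *Cd14* values was not tested. In bulk libraries, fewer cells of a type and less RNA per cell cannot be told apart.

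*Tlr7*, a sensor of single-stranded RNA, was the most widely counted of the receptors. It lies on chromosome X from 167304929 to 167330558. Its counts were 4172 and 6394 in the WT-labelled libraries and 0, 17539 and 935 in the KO-labelled libraries, that is, 151 and 186 CPM against 0, 410 and 18.6 CPM. The WT-labelled libraries lay between the lowest and the highest KO-labelled library. The WT-labelled mean was 168 ± 24.4 CPM (SD, n = 2) and the KO-labelled mean 143 ± 232 CPM (SD, n = 3), and edgeR put the log2 difference at −0.24 (SE 4.23) with an adjusted p of 1. The sign of this value changed to positive without KO-labelled replicate 1 (0.17) and without KO-labelled replicate 3 (0.27), and the value was −4.10 without KO-labelled replicate 2.

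B cells and dendritic cells also express *Tlr7*. Of their markers, the B cell receptor genes *Cd79a* and *Cd79b* had 0 counts in every library, and the 4 B cell markers exceeded 3 counts only in KO-labelled replicate 1 (2 of 4, summing to 5.36 CPM), where *Tlr7* was 0. The 7 dendritic cell markers summed to at most 7.26 CPM in 4 libraries. In KO-labelled replicate 3 they summed to 434 CPM, nearly all of it *Cd209a* with 21805 counts, and *Tlr7* there had 935 counts. The part of these cells in the *Tlr7* values was not tested.

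*Tlr8* is the neighbour of *Tlr7* on chromosome X, from 167242696 to 167264329, with 40599 bases between them. It had 2337 counts (54.6 CPM) in KO-labelled replicate 2 and 0 in the other 4 libraries. That library was also the one with the most *Tlr7*. *Tlr13*, whose product recognises bacterial ribosomal RNA, lies elsewhere on chromosome X from 106143204 to 106160493. It had 9 counts (0.743 CPM) in KO-labelled replicate 1 and 0 in the other 4 libraries. *Tlr4*, *Tlr8* and *Tlr13* each exceeded 3 counts in a single library, failed the filter on low counts and were not tested.

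**Figure D2:**
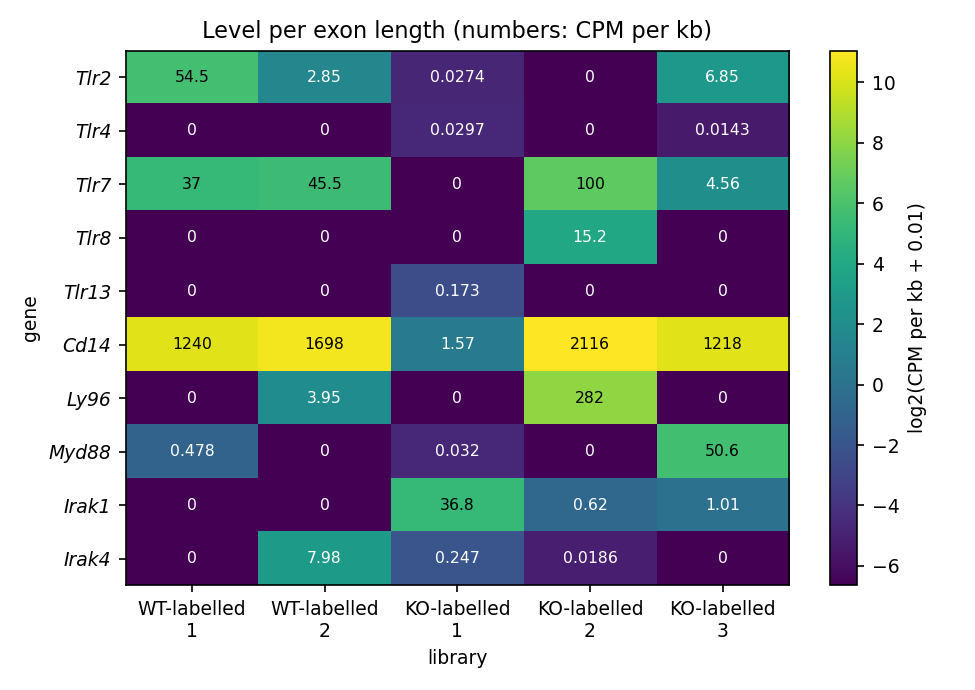
Level of each gene in each library as CPM divided by exon length in kilobases, with the values printed and the colour on a log2 scale after adding 0.01. *Cd14* stands between 1218 and 2116 CPM per kb in 4 libraries and at 1.57 in KO-labelled replicate 1, while *Tlr8* and *Tlr13* are 0 in all but 1 library.

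Among the 5 receptors of the 10 genes, *Tlr7* and *Tlr2* had the highest levels per kilobase of exon, which allows genes to be compared, in WT-labelled replicate 1 (37.0 and 54.5 CPM per kb). In WT-labelled replicate 2 they had 45.5 and 2.85 CPM per kb. In KO-labelled replicate 2, *Tlr7* (100.5 CPM per kb) exceeded *Tlr8* (15.2 CPM per kb), with *Tlr2* at 0. In KO-labelled replicate 3, *Tlr2* and *Tlr7* were close (6.85 and 4.56 CPM per kb). Which of these 5 had the highest level per length thus differed between libraries, also within a label. In KO-labelled replicate 1 none of the 5 exceeded 0.173 CPM per kb. Receptors outside the 10 genes reached higher levels per length in 2 libraries, with *Tlr1* at 113 CPM per kb in KO-labelled replicate 3 and *Tlr6* at 1.17 CPM per kb in KO-labelled replicate 1.

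The adaptor *Myd88* and the kinases *Irak4* and *Irak1*, whose products form 1 signalling complex, exceeded 3 counts in 2, 3 and 3 libraries. All 3 genes did so together in 0 libraries. *Myd88* with *Irak1* did so in 1 library, *Irak1* with *Irak4* in 2 and *Myd88* with *Irak4* in 0. Since genes were counted on or off in general, these joint counts are no result about the complex. The share over all genes was not computed.

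*Myd88* lies on chromosome 9 from 119335934 to 119341411. Its counts were 34 and 0 in the WT-labelled libraries and 1, 0 and 6547 in the KO-labelled libraries. KO-labelled replicate 3 held 99.0% of its summed CPM, at 130 CPM, and the other two KO-labelled libraries lay below WT-labelled replicate 1, so that the labels overlapped. The WT-labelled mean was 0.616 ± 0.870 CPM (SD, n = 2) and the KO-labelled mean 43.5 ± 75.2 CPM (SD, n = 3). The edgeR log2 difference was 6.13 (SE 6.45) with an adjusted p of 1. Its sign depended on the scaling and on the block, with −0.056 after upper-quartile normalization and −2.58 with the replicate number as a block, and it could not be tested without KO-labelled replicate 3, where it failed the filter.

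Exons of *Myd88* share 290 bases with exons of *Acaa1a*, a peroxisomal thiolase gene on the opposite strand, and 5.68% of the stretches of 75 bases in its transcripts, the read length, also occur in transcripts of *Acaa1a*. The strand was not stated to be used in counting, so reads on this stretch could be given to either gene. *Acaa1a* had 144 and 1 counts in the WT-labelled libraries and 0, 0 and 2037 counts in the KO-labelled libraries, and was thus highest in the same libraries as *Myd88*. The part of reads of one gene in the count of the other was not tested.

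*Irak4*, the first kinase recruited by MyD88, lies on chromosome 15 from 94543643 to 94581815. Its counts were 0 and 1380 in the WT-labelled libraries and 15, 4 and 0 in the KO-labelled libraries, so that 1 WT-labelled library was above and the other at or below every KO-labelled library. The WT-labelled mean was 20.02 ± 28.3 CPM (SD, n = 2) and the KO-labelled mean 0.444 ± 0.689 CPM (SD, n = 3), and edgeR put the log2 difference at −5.50 (SE 4.77) with an adjusted p of 1. This rested on WT-labelled replicate 2, without which the value was 6.37. *Irak4* shares 395 exon bases with *Twf1*, an actin-binding protein gene on the opposite strand, which had 0 and 4447 counts in the WT-labelled libraries and 0, 5089 and 108 counts in the KO-labelled libraries. Of the 75-base stretches of *Irak4*, 3.62% also occur in transcripts of *Twf1* or *Gm4887*. *Irak4* and *Twf1* were both high in WT-labelled replicate 2, whereas in KO-labelled replicate 2 only *Twf1* was. WT-labelled replicate 2 also held the most T cell marker RNA. The 5 T cell markers summed to 7.89 and 4777 CPM in the WT-labelled libraries and to 1.73, 361 and 1343 CPM in the KO-labelled libraries, and all 5 exceeded 3 counts in WT-labelled replicate 2. The part of T cells in the *Irak4* value was not tested.

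**Figure D3:**
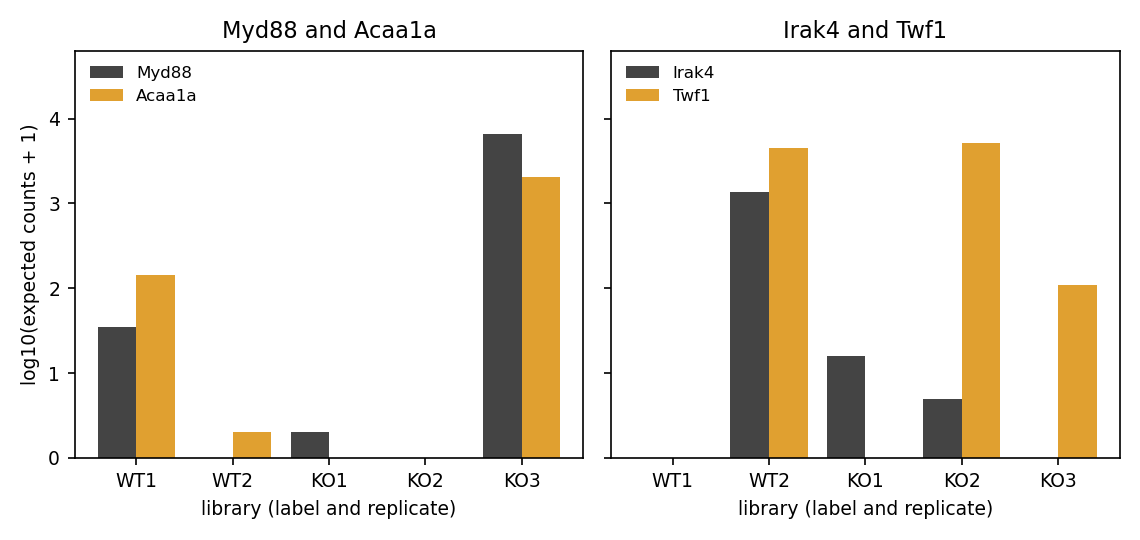
Expected counts, as log10 of the count plus 1, of *Myd88* and *Irak4* (dark bars) beside the genes that share exon bases with them on the opposite strand (light bars), by library label and replicate number. *Myd88* and *Acaa1a* both peak in KO-labelled replicate 3, with 6547 and 2037 counts.

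*Irak1*, the kinase downstream of IRAK4, was the only one of the 10 genes whose labels did not overlap. It lies on chromosome X from 74013914 to 74023918 and had 0 counts in both WT-labelled libraries and 2103, 125 and 240 counts in the KO-labelled libraries. In the latter this was 174, 2.92 and 4.78 CPM, so that replicate 1 held 95.8% of the summed CPM. The mean of the KO-labelled libraries was 60.4 ± 98.0 CPM (SD, n = 3). This was 617-fold above what a floor of 3 counts per WT-labelled library gives, 0.0978 CPM on average. It is no lower bound on the difference, since the floor covers counting error only. Without KO-labelled replicate 1 the mean was 39.3-fold above that floor. The edgeR log2 difference was 13.98 (SE 8.52) with an adjusted p of 1, and 10.15 without KO-labelled replicate 1. The exact permutation test (two-sided) over the 10 splits into 2 and 3 libraries gave p = 0.1, the smallest that this design allows. *Irak1* passed the filter on low counts through the KO-labelled libraries alone. Of its 75-base stretches, 0.704% occurred in transcripts of other genes. Among the 7905 genes tested, 6.68% were higher in every KO-labelled than in every WT-labelled library, 4.54% were lower in all of them and 11.2% were thus without overlap in either direction. Of the 10 genes, 7 were among those tested and 1 of these 7 was without overlap, a count too small to set apart from these shares.

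Enough counts for a test were found for 7 of the 10 genes, which were fitted with all other genes, and 0 had an adjusted p under 0.05 in edgeR, nor did any other gene (percent called over all genes, 0). At an unadjusted p under 0.05, edgeR gave 0 of the 7 and 86 of 7905 genes (1.09%). It gave 1 of the genes tested among the 10 with RLE size factors, with upper-quartile normalization and without KO-labelled replicate 1, as did limma-voom. Over all genes these fits gave 105 of 7905, 164 of 7905 and 123 of 5050 genes, and limma-voom 593 of 7905. DESeq2 with default options, the study's tool, called 790 of the 6519 genes with an adjusted p (12.1%), and limma-voom with sample quality weights called 234 genes, both without any of the 10 genes. DESeq2 gave an adjusted p to only 2 of them, *Cd14* (0.888) and *Irak4* (0.583), and no p at all to 6. The exact permutation p of the other nine genes lay between 0.3 and 1.

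**Figure D4:**
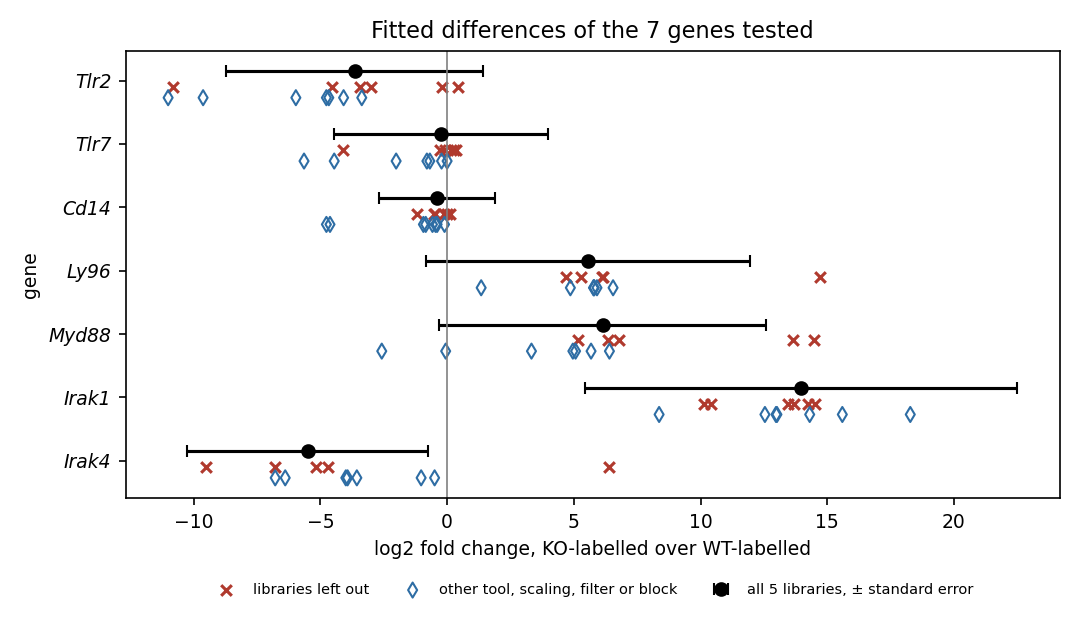
Log2 fold changes, KO-labelled over WT-labelled, of the 7 genes tested. Black points are edgeR's values with all 5 libraries and bars their standard errors, crosses are fits with libraries left out, and diamonds are other tools, scalings, filters or the block. *Tlr2*, *Tlr7*, *Cd14*, *Myd88* and *Irak4* each change sign in at least 1 fit. *Irak1* and *Ly96* stay above 0 in every fit that tested them. *Irak1* could not fall below 0, with 0 counts in both WT-labelled libraries. *Ly96* failed the filter without KO-labelled replicate 2, its only high library.

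The fitted values of the 7 genes scattered in both directions, with 3 above 0 and 4 below. Their median was −0.24, against 0.78 over all 7905 genes tested. With RLE size factors the median of the 7 genes was −0.80, against 1.24 over all genes. With upper-quartile normalization these medians were −0.49 and 0.29, and with total counts alone −0.22 and 0.13.

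The number of the 10 genes above 3 counts was 4 and 5 in the WT-labelled libraries and 4, 6 and 6 in the KO-labelled libraries. Over these 21705 genes counted somewhere, the shares were 31.9% and 27.9% in the WT-labelled and 75.7%, 23.1% and 31.5% in the KO-labelled libraries. KO-labelled replicate 1, which had the most genes above 3 counts, was thus, with WT-labelled replicate 1, the lowest for these 10 genes at this threshold. At a threshold of 1 count the order turned, with 7 of the 10 genes in KO-labelled replicate 1 against 4 and 5 in the WT-labelled and 6 and 6 in the other KO-labelled libraries. Among 44 other genes of the pathway, it had the most, with 32 above 3 counts, against 13 and 23 in the WT-labelled libraries and 19 and 25 in the other KO-labelled libraries. With counts scaled to the total of the smallest library, the numbers for the 10 genes were 4 and 5 against 4, 5 and 5.

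**Figure D5:**
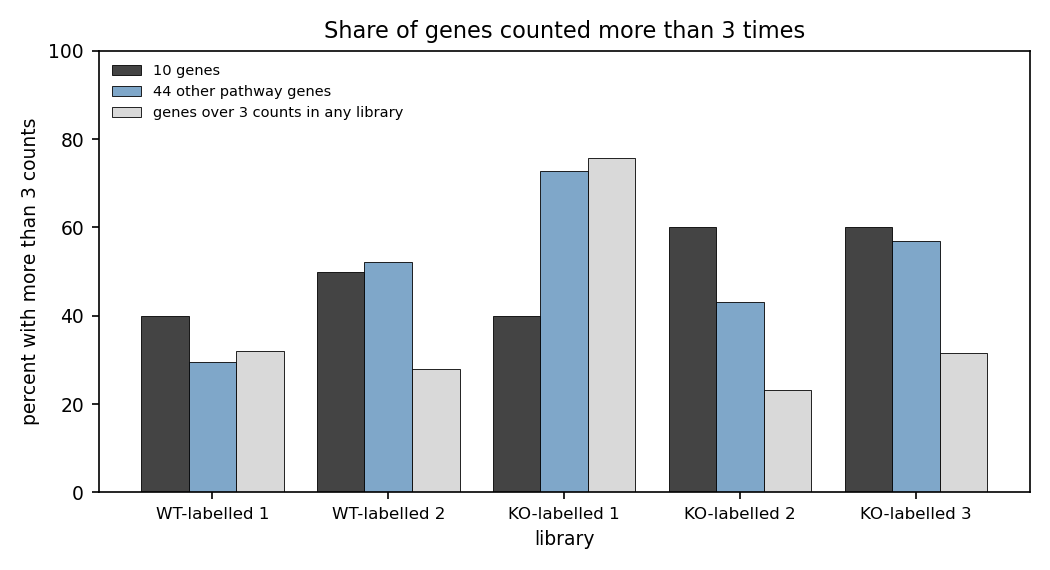
Percent of genes with more than 3 counts in each library, for the 10 genes, 44 other genes of the pathway and the 21705 genes that exceeded 3 counts somewhere. In KO-labelled replicate 1 the 10 genes stand at 40.0%, against 75.7% of all genes.

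The 44 other genes of the pathway comprised further receptors, chaperones and accessory proteins, adaptors, kinases and ubiquitin ligases, and the transcription factors *Irf3*, *Irf5* and *Irf7*. Of the 28 that were tested, 0 had an adjusted p under 0.05 with edgeR and 0 an unadjusted p under 0.05. Their fitted log2 fold changes were above 0 for 18 and below for 10, with a median of 0.94. Of the 44, 2 were above 3 counts in no library, 6 in 1 library and 4 in every library.

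Genes without overlap between the labels were *Irf5* and *Tollip*, 2 of the 44 and both among the 28 tested, where 11.2% of all genes tested were without overlap. Both passed the filter on low counts through the KO-labelled libraries alone. Each separation lay at or near the floor, since the lowest KO-labelled library had 6 counts of *Irf5* and 3 of *Tollip*. *Irf5*, a transcription factor activated through MyD88, had 0 and 1 counts in the WT-labelled libraries and 6, 7954 and 10812 counts in the KO-labelled libraries. Its mean of 134 ± 116 CPM (SD, n = 3) in the KO-labelled libraries stood 1369-fold above the WT-labelled floor, again no lower bound. The edgeR log2 difference was 12.82 (SE 8.35, adjusted p of 1). *Tollip*, whose product binds IRAK proteins and dampens Toll-like receptor signalling, had 0 counts in both WT-labelled libraries and 11, 3 and 2016 counts in the KO-labelled libraries, with 97.6% of its summed CPM in replicate 3. DESeq2 with default options called both, with adjusted p values of 0.00298 and 0.0447, and these were the 2 genes it called among the 44, of which 26 had no adjusted p. Over all genes with an adjusted p it called 12.1%. The exact permutation p was 0.2 for each.

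The 4 genes above 3 counts in every library were *Hsp90b1*, *Cd36*, *Traf6* and *Ikbkb*. *Traf6*, the ubiquitin ligase that acts after the IRAK kinases, was low but the most even of them in counts, with 44 and 41 counts in the WT-labelled libraries and 49, 92 and 24 counts in the KO-labelled libraries. *Ikbkb*, a kinase of the complex that releases NF-κB, had 3503 and 3822 counts in the WT-labelled libraries and 70, 8953 and 5335 counts in the KO-labelled libraries. *Hsp90b1*, a chaperone needed by most Toll-like receptors, had 5 and 14983 counts in the WT-labelled libraries and 5204, 21116 and 26154 counts in the KO-labelled libraries. *Cd36*, a scavenger receptor that also works with TLR2, had 61 and 4099 counts in the WT-labelled libraries and 8, 324 and 23754 counts in the KO-labelled libraries. The labels overlapped for all 4 genes, and each had an adjusted p of 1 from edgeR.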

How the data were processed

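RNAseq libraries of sorted aortic macrophages were made by the authors with a SMART-Seq kit for very small amounts of RNA, in which cDNA is amplified. Reads of 75 bases, paired, were mapped to GRCm38 with STAR 2.5.3a and quantified per gene with RSEM 1.3.0 on a GENCODE mouse annotation. The authors deposited expected counts (estimated counts) as whole numbers, without normalization, with 1 column per library and 55487 genes. Counts were tested as deposited.

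Libraries were grouped by the WT or KO in their labels. The tool was edgeR 4.0.16 (R 4.3.3). After filterByExpr at a minimum count of 10 and TMM scaling, genes entered the quasi-likelihood test without covariates, with Benjamini-Hochberg adjustment over all 7905 genes tested and a threshold of 0.05. TMM factors were 1.42 and 1.06 for the WT-labelled and 0.515, 1.25 and 1.03 for the KO-labelled libraries. The standard error (SE) is the log2 fold change divided by the square root of F. Single genes were also compared by exact permutation of mean log2 CPM (prior count 2). Pearson's r of log2 CPM between pairs of libraries ranged from 0.0198 to 0.416 across the genes tested (genes are no independent replicates).

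The alternatives were DESeq2 1.42.0, limma-voom (limma 3.58.1), other scalings and filters, the replicate number as a block and each library left out in turn. Leaving out a WT-labelled library leaves 1, which is then assumed to vary like the KO-labelled ones. Tests were checked on simulated counts, drawn with far less spread than these libraries show, so that the check covers the code and not the power here. The genes, lists and tests were chosen with earlier results of these data known. The genes named by rule are the 10 genes, *Zeb1* as a check of the labels and, of the pathway list, those past the threshold, above 3 counts in every library or without overlap. *Lyz2* and *Apoe*, also in that rule, had 161607 to 869804 and 0 to 86 counts. Markers, overlapping genes, *Tlr6* and the genes under other observations were named outside this rule, after their values were seen. Coordinates and exon lengths are from GENCODE M21, in which all 10 identifiers matched with their version. Figures used matplotlib 3.10.9 in Python 3.11.15.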

Additional observations from a re-analysis of the deposited data

How the results depend on the processing

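In each fit run, 0 of the 10 genes were called at an adjusted p under 0.05. The number called over all genes was 790 with DESeq2, 234 with limma-voom and 0 in the edgeR fits, except for 2 without replicate 1 of both labels, a fit chosen after seeing the data. The median log2 fold change of those of the 10 genes that were tested was 4.72 with DESeq2 and 4.24 without a filter, where all 10 entered, against 3.56 and 2.54 over all genes. It lay between −2.10 and 5.77 with 1 library left out, against 0.14 to 6.42 over all genes. Direction changed for *Tlr7* without a filter (0.0013), without KO-labelled replicates 1 (0.17) or 3 (0.27; −4.10 without replicate 2) and without replicate 1 of both labels (0.36). It also changed in the latter fit for *Tlr2* (0.42) and *Cd14* (0.12), for *Irak4* without WT-labelled replicate 2 (6.37; −6.77 without WT-labelled replicate 1), and for *Myd88* with upper-quartile normalization (−0.056). In 80 of 89 refits of single genes the direction was kept, which is no measure of stability, since the refits share libraries. Those of *Irak1* could not turn, with 0 counts in both WT-labelled libraries. Missing are fits in which a gene failed the filter, as *Ly96* did without KO-labelled replicate 2 and *Myd88* without KO-labelled replicate 3.

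With 1 library left out, between 1 and 4 of the 10 genes were without overlap, and 2 without replicate 1 of both labels. Over all genes tested, the share was 20.5% to 39.4% with 1 library left out and 53.4% without replicate 1 of both labels. The 4, without KO-labelled replicate 2, were *Tlr7*, *Cd14*, *Irak1* and *Tlr4*, the last with 2 and 4 counts and not tested, at a share of 22.5% over all genes. *Irak1* was among them in each of these settings, an outcome fixed in advance by its 0 counts in both WT-labelled libraries. In KO-labelled replicate 1, 7 of the 10 genes had at least 1 count, against 4 above 3 counts.

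Replicate numbers 1 and 2 occur under both labels. The deviations of same-numbered libraries from their group means had correlations of 0.24 and 0.071 across genes. The libraries numbered 1 also shared few genes at 100 counts or more, but with 2 pairs and no label for a shared source the numbers were not taken as pairs. With the replicate block, 0 genes were called, 7 had an unadjusted p under 0.05, and *Myd88* turned negative (−2.58), which was also the median of the 7 genes tested. *Tlr2* was −11.01, *Tlr7* −5.64 and *Cd14* −4.62.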

Other observations

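Other genes of the pathway, chosen after their values were seen, had high counts in KO-labelled replicate 3 and few elsewhere. *Tlr1*, the partner of TLR2 for triacylated lipopeptides, had 18953 counts there, 7 in KO-labelled replicate 1 and 0 in the other three libraries. *Irak2*, a kinase of the late MyD88 complex, had 7704 counts there and 0 in the other 4 libraries. *Pik3ap1*, an adaptor that links these receptors to PI3K, had 25316 counts there and at most 17 in the others. *Myd88* was highest in the same library.

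*Unc93b1*, which carries the endosomal receptors to endosomes, had 0 and 47219 counts in the WT-labelled libraries and 87155, 1532 and 34956 counts in the KO-labelled libraries. Its most abundant library, KO-labelled replicate 1, held 9 counts of *Tlr13* and 0 of *Tlr7* and *Tlr8*. *Irak3*, an inhibitory member of the IRAK family, had 0 and 16741 counts in the WT-labelled libraries and 5054, 2358 and 0 counts in the KO-labelled libraries. *Ticam1*, which encodes TRIF, had at most 20 counts in a library. The labels overlapped for all 6 of these genes.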
